A study of Mus musculus with 12 samples.

Results

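Phyhd1, Csdc2, Cngb3 and Whrn are genes whose part in the heart has been little studied, and their signal was followed across every heart of a mouse study of the glucocorticoid receptor. They were chosen by their lower signal in receptor knockout hearts at both 1 month and 2 months, and their probes were found by current, older or newer gene symbol. The rule found 6 probes for the 4 genes among 41174 probes, and the 4 genes are among 21910 genes that were measured. Phyhd1 and Csdc2 had 1 probe each, and Cngb3 and Whrn had 2 each.

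All mice were male and on the C57BL/6 background, and all carried a floxed allele of Nr3c1, the glucocorticoid receptor gene. In the cardioGRKO mice the Cre recombinase was driven in cardiomyocytes by the alpha myosin heavy chain promoter, and the GRflox controls were littermates without Cre, so that what Cre alone does and what the loss of the receptor does cannot be told apart. Each genotype was sampled at 1 month and at 2 months, with 3 whole hearts in each of the 4 groups and 1 array per heart. In RNA from whole hearts, fewer cells of a type and less RNA per cell cannot be told apart.

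The glucocorticoid receptor is a nuclear receptor that binds corticosterone in mice, moves to the nucleus and regulates genes through response elements in DNA or through other transcription factors. Phyhd1 encodes a phytanoyl-CoA dioxygenase domain protein, a relative of the peroxisomal enzyme Phyh that starts the breakdown of phytanic acid. Csdc2 (PIPPin) is an RNA-binding protein with a cold shock domain. Cngb3 is the beta subunit of the cyclic nucleotide-gated channel of cone photoreceptors, where it pairs with Cnga3, and Whrn encodes whirlin, a PDZ domain scaffold needed in the stereocilia of inner ear hair cells and part of a protein complex of Usher syndrome in photoreceptors.

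Signals are given as log2 of the processed array intensity minus the log2 75th percentile of that array, which lay between 885.8 and 1549.1 intensity units. Levels of different probes are not comparable, so only differences within a probe are read. Of the cardiomyocyte markers, 10 of 10 were measured in these hearts. Nr3c1 was lower in every knockout heart on the probe that represents it, at 1.21, 1.25 and 1.31 against 2.56, 2.11 and 2.11 in controls at 1 month (log2 difference -0.998, SE 0.12, limma adjusted p = 0.0515, which misses the threshold of 0.05). At 2 months it was at 0.96, 0.95 and 0.86 against 2.15, 2.04 and 1.99 (-1.14, SE 0.12, adjusted p = 0.0121). The labels do not give the deleted exons, so the probe may lie outside them. Nr3c1 had further probes on the array. On A_52_P63106 and A_52_P254174 all knockouts were also below all controls of the same age. On A_51_P355693 this held at 1 month. At 2 months its knockouts read -3.43, -3.74 and -2.35 and its controls -2.27, -2.21 and -2.48, so the groups overlapped. The arrays came from 4 slides. Slide 1 held the 1-month controls alone, so slide and group cannot be told apart in comparisons with that group. Slide 4, with cardioGRKO_1month replicate 1 and cardioGRKO_2month replicate 3, was scanned on a second day. Those arrays and GRflox_2month replicate 2 stood apart with 79.4%, 79.6% and 82.2% of probes well above background, against 67.5% to 74.0% on the others.

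The genes lie at separate places in the genome. On mouse build GRCm38.p6, RefSeq puts Phyhd1 on chromosome 2 at 30266203 to 30282149, Csdc2 on chromosome 15 at 81936759 to 81950941, and both Cngb3, at 19280850 to 19510623, and Whrn, at 63414908 to 63496083, on chromosome 4. The array annotation places the probes on build mm7, and these positions cannot be set against the gene models of the other build, so whether a probe lies in a coding exon or a UTR was not determined. Probe A_51_P357606 of Phyhd1 lies on chromosome 2 at 30289346 to 30289405, and A_51_P183561 of Csdc2 on chromosome 15 at 82035061 to 82035120. Of the Cngb3 probes, A_52_P225959 lies on chromosome 4 at 19436051 to 19436110 and A_51_P131466 at 19437203 to 19437262. Of the Whrn probes, A_51_P303620 lies on chromosome 4 at 62848641 to 62848700 and is annotated with a RefSeq transcript, while A_51_P264685 at 62859395 to 62859454 is annotated with a GenBank sequence.

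RefSeq promoter windows, 250 bases before to 50 after a gene's start, matched 2 of the 4 genes, Phyhd1 with 3 windows and Whrn with 1. The first Phyhd1 window and the Whrn window are shown because these genes were lower together in knockouts while their promoters differ in base composition. The Phyhd1 window is chr2:30265953-30266252 on the plus strand and the Whrn window chr4:63495942-63496241 on the minus strand, both on GRCm38.p6, and CpG dinucleotides are in capitals.
Phyhd1: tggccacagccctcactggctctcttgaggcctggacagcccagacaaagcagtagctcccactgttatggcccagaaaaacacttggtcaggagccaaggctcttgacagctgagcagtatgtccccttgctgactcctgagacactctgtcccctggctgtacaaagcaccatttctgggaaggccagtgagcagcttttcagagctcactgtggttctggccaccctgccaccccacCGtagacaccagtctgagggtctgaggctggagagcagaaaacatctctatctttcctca
Whrn: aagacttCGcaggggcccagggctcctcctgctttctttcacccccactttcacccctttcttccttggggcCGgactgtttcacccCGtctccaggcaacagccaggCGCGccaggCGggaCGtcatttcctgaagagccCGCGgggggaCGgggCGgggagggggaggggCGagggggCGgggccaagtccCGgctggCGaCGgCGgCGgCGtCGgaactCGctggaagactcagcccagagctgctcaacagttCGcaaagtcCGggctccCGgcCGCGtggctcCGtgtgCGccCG
The Phyhd1 window held 1 CpG and 55.7% G and C, and the Whrn window 29 CpG and 70.0% G and C, where the median over 32851 windows of the same length was 7 CpG and 52.7%. The full glucocorticoid response element, AGAACA and TGTTCT with 3 bases between them, was in none of the 4 windows and in 0.00913% of all windows. None of its half-site AGAACA (19.0% of all windows), the MEF2 motif, CTA and TAG with 4 bases between them (3.69%), the GATA motif AGATAA (11.2%) and TATAAA (13.6%) was found on either strand, which says only that these letters are not in these windows.

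Phyhd1 signal was lower in knockout hearts at both ages, and higher at 2 months than at 1 month. In 1-month hearts the signal was 4.68, 4.70 and 4.93 in controls and 3.40, 3.37 and 3.53 in knockouts. In 2-month hearts it was 5.47, 5.36 and 5.54 in controls and 3.68, 3.84 and 4.004 in knockouts. Every knockout heart was below every control heart of either age. The knockout signal was 39.7% of the control signal at 1 month (log2 difference -1.33, SE 0.11, n = 3 hearts per group) and 32.6% of it at 2 months (-1.62, SE 0.11). In intensity units the Phyhd1 spot ran from 11296 to 60741 over the 12 hearts and was not saturated on any array.

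Csdc2 followed a nearly identical course. It stood at 0.20, 0.02 and -0.29 in 1-month controls and at -1.38, -1.34 and -1.40 in 1-month knockouts. The 2-month controls were at 0.72, 0.66 and 0.69 and the 2-month knockouts at -1.05, -0.78 and -0.86. Knockout and control hearts did not overlap, and the 1-month knockouts lay close together (SD 0.03). The knockout signal was 39.2% of control at 1 month (-1.35, SE 0.12) and 33.3% at 2 months (-1.59, SE 0.12).

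Cngb3 showed a wider gap between genotypes at 2 months than at 1 month, on a probe of 96.7 to 588.6 intensity units that was well above background on all 12 arrays. On that probe, A_52_P225959, the 1-month controls were at -2.41, -2.99 and -2.45 and the 1-month knockouts at -3.66, -3.31 and -3.61. At 2 months the controls reached -1.22, -1.36 and -1.26, and the knockouts were at -3.21, -3.21 and -3.03. Each 2-month knockout heart lay below each 1-month control heart on this probe, but narrowly. The highest such knockout was at -3.03 and the lowest such control at -2.99. The knockout signal was 53.2% of control at 1 month (-0.91, SE 0.16) and 27.3% at 2 months (-1.87, SE 0.16).

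The second Cngb3 probe, A_51_P131466, was dimmer, at 20.8 to 144.2 intensity units. It read -4.56, -5.43 and -4.48 in 1-month controls and -5.71, -5.21 and -6.08 in 1-month knockouts, where 2 of 3 arrays were well above background and the groups overlapped. At 2 months it read -3.25, -3.25 and -3.27 in controls and -4.72, -4.58 and -4.37 in knockouts, with no overlap. The 2-month knockouts overlapped the 1-month controls on this probe, with a higher mean of -4.56 against -4.82. Its knockout signal was 55.6% of control at 1 month and 40.6% at 2 months, so the probes differed by 0.06 in their log2 difference at 1 month and by 0.57 at 2 months.

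Whrn was lower in knockouts by less than the other genes at 2 months and, on this scaling, at 1 month, where Cngb3 was at -0.63 and Whrn at -0.83 with normexp background and quantile scaling and at -0.81 and -0.82 without GRflox_1month replicate 1. On probe A_51_P303620 the 1-month controls were at 3.08, 3.23 and 3.13 and the knockouts at 2.41, 2.31 and 2.38. The 2-month controls were at 2.75, 2.89 and 3.12 and the knockouts at 1.97, 2.23 and 2.13. Every knockout heart was below every control heart, at 58.1% of control at 1 month (-0.78, SE 0.11) and 56.9% at 2 months (-0.81, SE 0.11).

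The other Whrn probe, A_51_P264685, did not show this pattern. It read -3.32, -3.14 and -2.80 in 1-month controls and -2.85, -3.53 and -2.77 in 1-month knockouts. At 2 months it read -3.64, -2.99 and -3.09 in controls and -4.21, -3.77 and -3.24 in knockouts. The groups overlapped at both ages, with a log2 difference of 0.03 (SE 0.30) at 1 month and -0.50 (SE 0.30) at 2 months. This probe was dim, at 65.9 to 214.2 intensity units against 4206 to 10980 for A_51_P303620, and the values of Whrn below are those of the brighter probe.

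**Figure D1:**
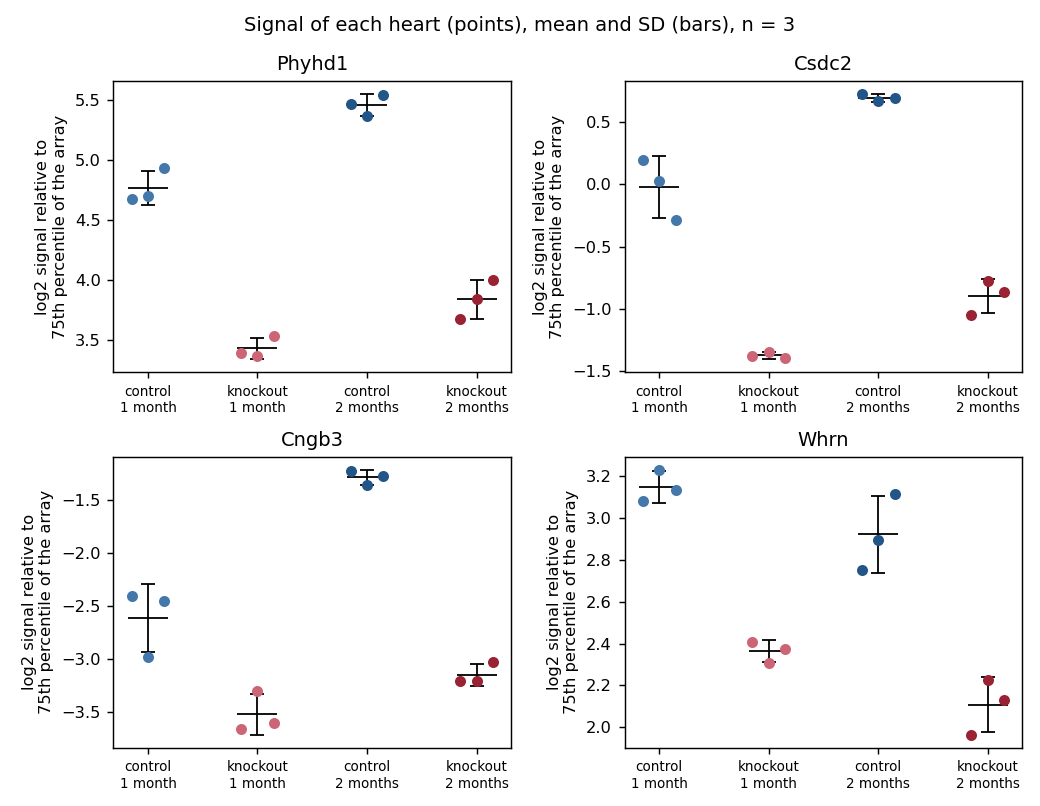
Log2 signal relative to the 75th percentile of the array in each of 3 hearts per group (points), with the group mean and SD (bars), for the probe that represents each gene. Knockout hearts lie below control hearts of the same age in all 4 panels, and the 2-month controls of Cngb3 lie between -1.36 and -1.22, above every other heart.

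**Figure D2:**
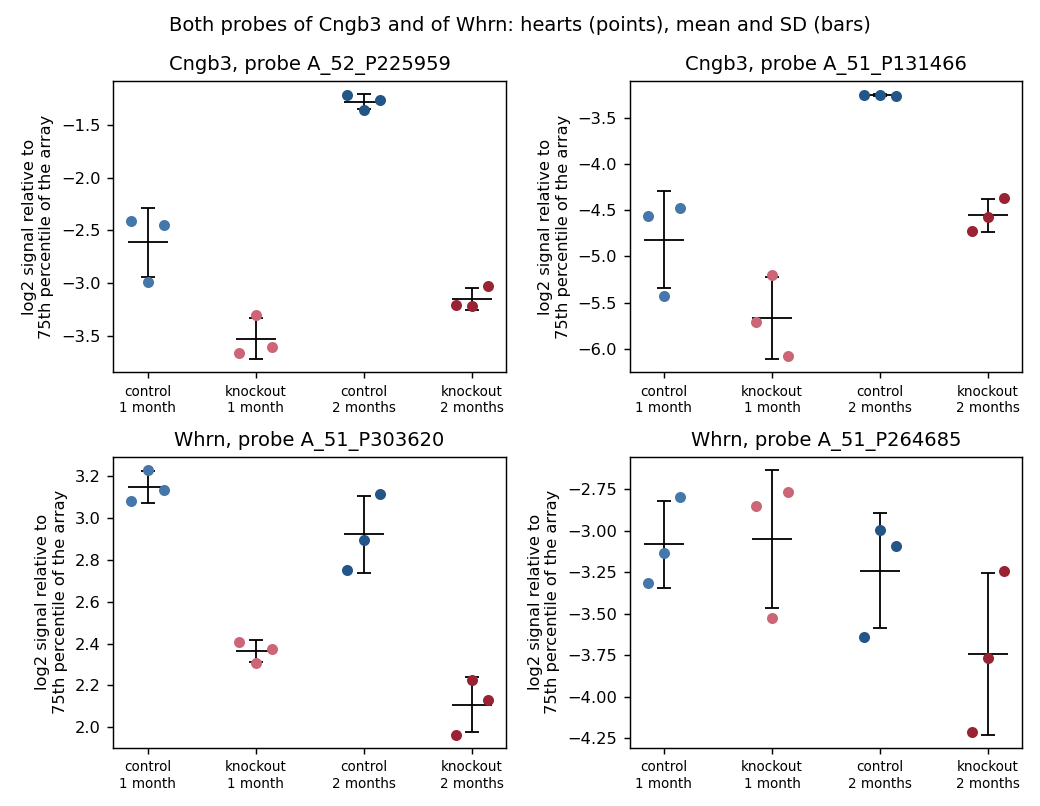
The same plot for both probes of Cngb3 (top) and of Whrn (bottom), with the probe that represents the gene on the left. The right-hand Cngb3 probe separates the 2-month groups and the right-hand Whrn probe overlaps at both ages.

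These genotype differences chose the genes and are given as a description, with no test. The counts of the 4 genes below follow from that choice and are no support for it. Of the 4 genes, 2 (Phyhd1 and Csdc2) were among the genes lower in knockouts at 1 month by limma at an adjusted p under 0.05, which were 0.0137% of 21909 genes (0.0274% in either direction). At 2 months 4 of 4 were among them, where 0.0593% of 21910 genes were lower, 0.0776% higher and 0.137% either. Control and knockout hearts did not overlap for 4 of 4 genes at both ages, where 8.99% of genes at 1 month and 6.27% at 2 months were lower in knockouts without overlap. Cngb3 and Whrn lie outside the called genes at 1 month, and their gap between the lowest control and the highest knockout there was 0.32 and 0.67, against 1.14 for Phyhd1 and 1.05 for Csdc2. Many genes were lower by more: counted from the most negative difference, Phyhd1 stood at place 63 at 1 month and 69 at 2 months, Csdc2 at 59 and 75, Cngb3 at 164 and 44, and Whrn at 231 and 449.

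Within slide 3, which held 1 control and 2 knockout hearts of 2 months, the log2 difference was -1.78 for Phyhd1, -1.60 for Csdc2, -1.95 for Cngb3 and -1.02 for Whrn. Without the 3 arrays that stood apart it was -1.74, -1.62, -1.97 and -0.84 at 2 months and -1.32, -1.35, -0.84 and -0.81 at 1 month, in the same order. No slide held both groups of 1 month. The endothelial markers were lower in knockouts at both ages, with 6 of 7 below 0 and a median of -0.19 at 1 month and -0.18 at 2 months, and none passed. At 2 months their score, the median over 7 of 7 measured markers of the log2 signal centred over the 12 arrays, ran from -0.33 to -0.07 in knockouts and from -0.05 to 0.04 in controls, and at 1 month from -0.05 to 0.14 against 0.14 to 0.32, which just overlapped. Its part in the members' difference was not tested. Cardiomyocyte markers were below 0 for 10 of 10 genes at 1 month (median -0.23, none passed), with scores of -0.27 to -0.06 in knockouts and -0.07 to 0.17 in controls, and their part was not tested either. Of all genes, 43.1% were below 0 at 1 month and 45.3% at 2 months, with medians of 0.04 and 0.03. Since 0.0274% and 0.137% of all genes passed, that no marker passed is no result about the markers. Scores of all other marker lists overlapped between genotypes at both ages, and the adipocyte score varied most, from -3.55 to 1.66 over the 12 hearts.

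Between 1 and 2 months, 3 of the 4 genes rose in control hearts. This comparison was not used to choose the genes, although it shares their arrays. With 3 hearts at each age, the rise of Cngb3 was 2.52-fold, or 1.33 on the log2 scale (SE 0.16, adjusted p = 0.00596 by limma). That of Csdc2 was 1.64-fold (0.72, SE 0.12, adjusted p = 0.0237) and that of Phyhd1 1.61-fold (0.69, SE 0.11, adjusted p = 0.0187), and each 2-month control was above each 1-month control, as for 14.2% of all genes. Of all genes 0.776% rose, 1.32% fell and 2.1% passed in either direction, and the median difference of all genes was 0.12. The second Cngb3 probe gave 1.56 (SE 0.27, limma adjusted p = 0.0292 over all probes). Whrn did not pass, with a difference of -0.23 (95% interval -0.48 to 0.02, adjusted p = 0.360) and overlapping ages.

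In controls age and slide 1 cannot be told apart. The calls of Phyhd1, Csdc2 and Cngb3 ended with arrays centred on the median (adjusted p = 0.659, 0.644 and 0.318) and with the 6 control arrays fitted alone (0.170, 0.221 and 0.123), while the direction held. The call of Phyhd1 ended without GRflox_1month replicate 1 or 2 or GRflox_2month replicate 1 or 3 (adjusted p up to 0.0812), and that of Csdc2 without GRflox_1month replicate 2 or GRflox_2month replicate 1, 2 or 3 (up to 0.0808). Cngb3 kept its call without any 1 array (up to 0.0284) but lost it with quantile scaling (0.0548). The call of Phyhd1 was also lost with normexp background (0.0687) and without the 3 arrays that stood apart (0.0711). That of Csdc2 was also lost without the second scan day (0.0720), without those 3 arrays (0.138) and with the replicate number as a block. Marker scores of fibroblasts were lower in the 2-month controls, at -0.44 to -0.26 against 0.19 to 0.43. Those of endothelial cells, smooth muscle and pericytes, and macrophages were lower too, with no overlap, and their part in the rise was not tested.

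In knockout hearts no member passed for age, where 0.721% of all genes did. The differences were 0.41 (95% interval 0.15 to 0.66, limma adjusted p = 0.138) for Phyhd1, 0.48 (0.20 to 0.76, adjusted p = 0.122) for Csdc2, 0.37 (0.01 to 0.74, adjusted p = 0.321) for Cngb3 and -0.25 (-0.51 to -0.00, adjusted p = 0.323) for Whrn, against a median of 0.10 over all genes. On the brighter probes the ages did not overlap for any of the 4, as for 14.3% of all genes that were higher and 10.9% that were lower at 2 months, and the gap was 0.08 for Whrn and 0.09 for Cngb3. The second Cngb3 probe gave 1.11 (SE 0.27, limma adjusted p = 0.124 over all probes). The marker scores of fibroblasts, endothelial cells, smooth muscle and pericytes, and macrophages were lower and that of atrial markers higher at 2 months in knockouts, with no overlap. Fibroblast scores were at -0.37 to -0.09 against 0.21 to 0.31 and atrial ones at 0.07 to 0.48 against -0.22 to -0.06, and their part was not tested. Within slide 4, which held 1 knockout heart of each age, the differences were 0.61, 0.52, 0.63 and -0.28.

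Whether the genotype difference itself changed with age was tested by the difference of both differences. It is made from both genotype differences that chose the genes, so for the 4 genes it is no independent test. None of the 4 genes passed, nor did any gene on the array (0% of 21909 genes by limma, with 295 at an unadjusted p under 0.05). For Cngb3 the knockout minus control difference at 2 months minus that at 1 month was -0.96 (95% interval -1.48 to -0.44, limma adjusted p = 0.99988). The second Cngb3 probe gave -0.45 (SE 0.39). It was -0.28 (-0.64 to 0.08) for Phyhd1, -0.24 (-0.64 to 0.16) for Csdc2 and -0.03 (-0.38 to 0.33) for Whrn, with the same limma adjusted p = 0.99988 for each.

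**Figure D3:**
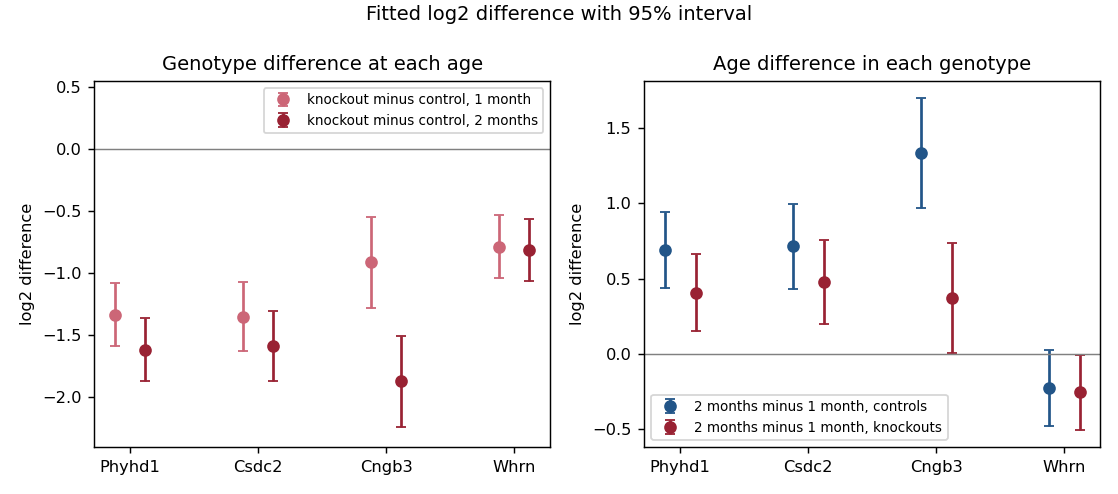
Fitted log2 differences with 95% intervals for the 4 genes: knockout minus control at each age (left) and 2 months minus 1 month in each genotype (right), 3 hearts per group. On the right the control intervals of Phyhd1, Csdc2 and Cngb3 lie above 0 and that of Whrn, -0.48 to 0.02, includes 0.

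The genes whose course over the 12 hearts was most alike were sought among 13834 named genes well above background on every array, by the root mean square (RMS) difference of log2 signals after centring each gene on its mean. Phyhd1 and Csdc2 were each other's closest gene, 0.18 apart, where a flat line would be 0.80 from either. Ptgds, the lipocalin-type prostaglandin D synthase, was the closest gene to Cngb3 (0.23, against 0.87 for a flat line) and next for Csdc2 (0.23) and Phyhd1 (0.26). Pfkfb1, which sets the level of fructose 2,6-bisphosphate, came next after these for all 3 (0.34, 0.36 and 0.32 from Phyhd1, Csdc2 and Cngb3). Cngb3 was 0.28 from Phyhd1 and 0.30 from Csdc2. Ptgds had a log2 difference between knockouts and controls of -1.32 (SE 0.18) at 1 month and -1.72 (SE 0.18) at 2 months, and Pfkfb1 one of -0.87 (SE 0.19) and -1.38 (SE 0.19). The likeness rests on the same arrays that chose the members, so the differences of genes found by it are a description, with no test.

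Whrn had another set of closest genes, and stood 0.54 from Phyhd1, 0.56 from Csdc2 and 0.70 from Cngb3. They were Cmss1 (0.21), Snrpn, an imprinted gene that encodes a small nuclear ribonucleoprotein (0.21), Shisa2 (0.22) and Cep85l (0.22), where a flat line would be 0.43 away. Their log2 differences at 2 months were -0.56 for Cmss1, -0.48 for Snrpn, -0.58 for Shisa2 and -0.65 for Cep85l.

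Genes of the same families and pathways were described by lists. Over all genes 0.0274% passed at 1 month and 0.137% at 2 months, so a count of 0 in lists of this size is near the background and is no result about the lists. In the list of alpha-oxidation and the Phyh family, 0 of 13 measured genes rose and 0 fell at either age, with a median of -0.01 at 1 month and -0.02 at 2 months against 0.04 and 0.03 over all genes. Phyh itself, named after its values were seen, was at -0.02 (SE 0.11) and -0.07 (SE 0.11). The largest differences at 2 months were 0.77 (SE 0.47) for Hacl1, the lyase that shortens 2-hydroxyacyl-CoA, 0.73 (SE 0.31) for the branched-chain oxidase Acox2 and -0.38 (SE 0.68) for the acyl-CoA synthetase Slc27a2. The score of this list was higher at 2 months than at 1 month without overlap, by 0.16 in controls and 0.14 in knockouts. Of single genes, 14.2% and 14.3% were higher without overlap. In controls age and slide 1 cannot be told apart.

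Of the cold shock domain proteins, 5 of 7 were measured and 0 rose or fell at either age (medians -0.17 and 0.02). Ybx3 was at -0.42 (SE 0.18), Ybx2 at 0.36 (SE 0.38) and Ybx1, a widely expressed binder of mRNA, at -0.31 (SE 0.09) at 2 months. The score of this list did not overlap at 1 month, at -0.17 to 0.05 in knockouts and 0.09 to 0.11 in controls. Of single genes, 8.99% were lower in knockouts without overlap at that age. At 2 months the score overlapped, at -0.11 to 0.004 in knockouts and -0.06 to 0.14 in controls.

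Of the channels that cyclic nucleotides open, among them pacemaker channels, 8 of 9 were measured and 0 rose or fell at either age (medians 0.09 and 0.22). Cnga2 was at 0.76 (SE 0.58), Hcn4 at 0.42 (SE 0.55) and Hcn2 at 0.27 (SE 0.21) at 2 months. In controls the score of the channels was higher at 2 months than at 1 month without overlap, by 0.34, as for 14.2% of single genes. In knockouts the ages overlapped. In cone phototransduction 10 of 14 genes were measured, and 0 rose or fell (medians 0.39 and 0.12). Pde6h, the inhibitory subunit of the cone phosphodiesterase, was at -0.69 (SE 0.23) at 2 months, Gnb3, a G protein beta subunit, at 0.65 (SE 0.30) and Cnga3, the partner of Cngb3 in cones, at 0.13 (SE 0.24).

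Of the Usher and stereocilia genes 15 of 16 were measured and 0 rose or fell at either age (medians 0.32 and 0.17). Ush1c, the scaffold harmonin, was at 0.81 (SE 0.25) at 2 months, Adgrv1, a membrane receptor that binds whirlin, at 0.58 (SE 0.57) and the calcium channel Cacna1d at 0.55 (SE 0.20). Among glucocorticoid-induced genes 0 of 17 rose or fell at 1 month, and 0 rose and 1 fell at 2 months (medians -0.19 and -0.17). That gene was Ptgds, where 0.0593% of all genes fell. Ptgds was found above by its likeness to the members, so its fall is given as a description, with no test. At 2 months Mt2, a metallothionein, was at -0.78 (SE 0.23), Fkbp5, a co-chaperone of the receptor, at -0.60 (SE 0.33) and the clock gene Per1 at -0.44 (SE 0.37).

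**Figure D4:**
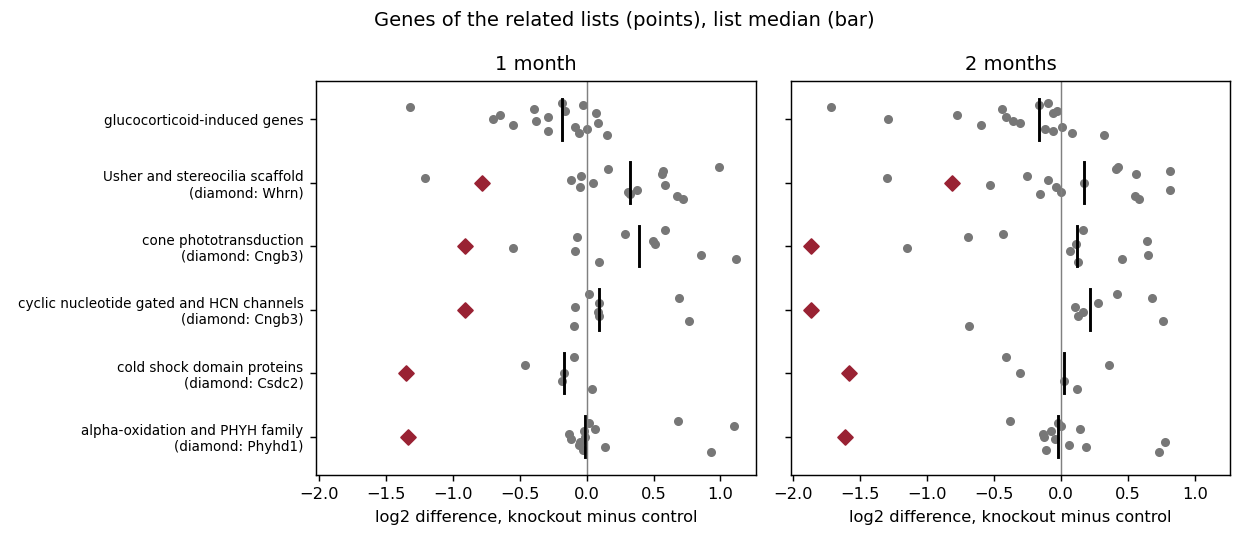
Log2 difference, knockout minus control, at 1 month (left) and 2 months (right) for each measured gene of 6 lists (grey points), with the list median (black bar) and the member that belongs beside the list (red diamond). Each diamond lies below 0, from -1.87 to -0.78, since the members were chosen for a lower signal, and the list medians lie between -0.19 and 0.39.

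The nearest 2 measured genes on each side were described in the same way, and 14 were well above background on all 12 arrays. None of them passed by limma at either age, which is near the background share of 0.0274% at 1 month and 0.137% at 2 months. Beside Phyhd1, Lrrc8a, a subunit of volume-regulated anion channels 2.41 kb away, was at -0.20 (SE 0.10) at 1 month and -0.00 (SE 0.10) at 2 months, and Dolk, dolichol kinase, 2.08 kb away, at 0.04 (SE 0.09) and 0.10 (SE 0.09). Pmm1, a phosphomannomutase 0.165 kb from Csdc2, was at -0.19 (SE 0.13) and -0.10 (SE 0.13). Cpne3, a copine 8.63 kb from Cngb3, was at -0.12 (SE 0.11) and -0.18 (SE 0.11), and Akna, 3.81 kb from Whrn, at -0.00 (SE 0.20) and 0.14 (SE 0.22), in a fit that dropped a spot of Akna. The largest differences among the 14 at 2 months were 0.79 (SE 0.65) for 1700029P11Rik, 29.6 kb from Csdc2, and -0.64 (SE 0.21) for Ripk2, a kinase of innate immune signalling that lies 3117 kb from Cngb3.

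**Figure D5:**
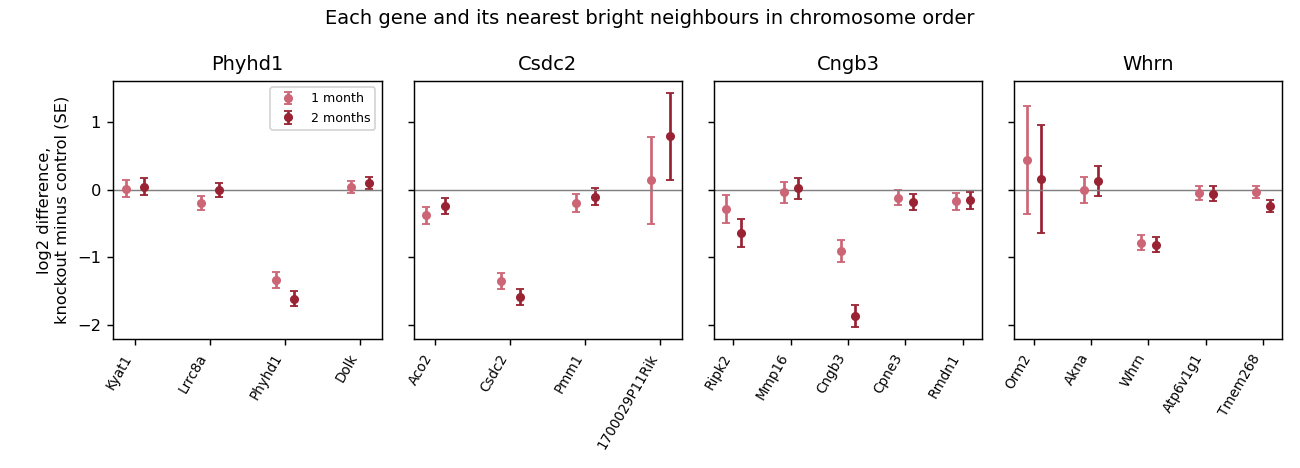
Log2 difference, knockout minus control, with SE at 1 month and 2 months for each member, named above its panel, and those of its 2 nearest measured protein-coding genes on each side that were well above background on all 12 arrays, in chromosome order. The member, which was chosen for its lower signal in knockouts, is the lowest point of its panel at both ages.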

How the data were processed

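Values of 12 hearts came from Agilent mouse arrays with Cy3 alone. The submitters' processing notes name Agilent Feature Extraction 9.5. The deposited values are each spot's processed signal, an intensity with spatial and multiplicative detrending and no background subtraction per the file headers, and the deposited value table equals it. Of 45018 features per array, 1639 controls and 3 to 310 non-uniform spots were left out. Log2 values were computed here from the deposited intensity, and a probe entered if well above background on at least 3 of 12 arrays. Names were updated through RefSeq (GRCm38.p6), while 8437 probes kept the deposited name. The entering probe with the highest mean represented a gene.

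A single limma model (limma 3.58.1, R 4.3.3) held all 12 arrays, and two-sided p-values were corrected with Benjamini and Hochberg's procedure across genes. SE are those of the model. The members and gene lists were chosen with earlier results of these data known. Genes named are the members, Nr3c1, the 4 most alike genes and the 2 nearest measured neighbours on each side of each member, of which those not well above background on all arrays were left out after their values were seen and some are not reported here, and per list those that passed and up to 3 others with the largest difference at 2 months among genes well above background on all arrays. Precision is limited by having 3 arrays in each group, and p-values measure the spread between these hearts.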

Additional observations from a re-analysis of the deposited data

How the results depend on the processing

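On the probe that represents each gene, each knockout minus control difference of the 4 genes kept its sign under every alternative run. The dimmer probes of Cngb3 and Whrn were not followed in these runs, and that of Whrn was at 0.03 (SE 0.30) at 1 month. Median centring, which moved the median of all genes by -0.23 at 1 month, gave -1.56 (Phyhd1), -1.58 (Csdc2), -1.14 (Cngb3) and -1.01 (Whrn) at 1 month. Normexp background with quantile scaling gave -1.09 (Csdc2) and -0.63 (Cngb3) at 1 month and -1.35 and -1.29 at 2 months, quantile scaling -1.11 for Cngb3 at 1 month, and leaving out the 3 arrays that stood apart -1.74 for Phyhd1 at 2 months. The difference of effects of Whrn turned to 0.15 with median centring and 0.054 with normexp, and ran from -0.11 to 0.070 without 1 array. The cause was not tested.

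The rise with age in controls, by limma, missed the threshold as follows. With median centring it was 0.44 (Phyhd1, adjusted p = 0.659), 0.46 (Csdc2, 0.644) and 1.08 (Cngb3, 0.318), where the median of all genes moved by -0.25. With the control arrays alone it was 0.69, 0.72 and 1.33 (adjusted p = 0.170, 0.221 and 0.123). It was 0.53 for Phyhd1 with normexp (adjusted p = 0.0687) and 1.22 for Cngb3 with quantile scaling (0.0548). For Csdc2 it was 0.72 both without the second scan day (adjusted p = 0.0720) and with the replicate block (0.0681), and without the 3 arrays it was 0.74 for Phyhd1 (0.0711) and 0.73 for Csdc2 (0.138). Without 1 array it ran from 0.64 to 0.77 for Phyhd1 and from 0.58 to 0.82 for Csdc2.

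Counts of genes past the threshold moved more. The 6 at 1 month became 11 with normexp, 11 with probes well above background on all arrays, 3 with the replicate block, 1 without the 3 arrays, and 0 with median centring (691 at an unadjusted p under 0.05), with the groups compared alone (1564) and without the second scan day (944). The 30 at 2 months became 3 with median centring, 15 with no filter, 6 with the replicate block, 8 without the second scan day, 4 without the 3 arrays, and 0 with the groups alone (1167) and with slide as a fixed term (970). The 0 for the difference of effects became 2 without the 3 arrays. The 460 for age in controls became 76 with median centring, 717 with all arrays above background, 264 with no filter, 253 with slide as a random block, 189 with the replicate block, 9 with the groups alone, 230 without the second scan day and 151 without the 3 arrays. The 158 for age in knockouts became 105 with quantile scaling, 408 with all arrays above background, 31 with no filter, 1 without the 3 arrays, and 0 with median centring (1064), the replicate block (2931), the groups alone (3499), no second scan day (2613) and slide as a fixed term (1978). Without 1 array, the counts ran from 0 to 6, 11 to 23, 0 to 0, 153 to 418 and 0 to 156, in this order. These counts are by limma. Deviations of hearts with the same replicate number correlated from -0.69 to 0.49. With 3 hearts per group, these values do not settle whether the numbers share more than a label. The 3-array removal and slide as a fixed term were chosen after seeing the data. Spots near background, such as the dimmer Cngb3 and Whrn probes, limit what can be read from them.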
